A study of Mus musculus with 6 samples.

Results

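In AGO2 CLASH, RNAs cross-linked in one AGO2 complex are ligated and sequenced together, so that each hybrid read pairs a miRNA with a fragment of its target mRNA. The hybrids of mmu-miR-19a-3p and mmu-miR-19b-3p (miR-19a-3p and miR-19b-3p from here on) are described, chosen by the miRNA name in the deposited table. They made up 824 of 15159 hybrid entries and 879 of 15680 reads, with 71 reads for miR-19a-3p and 808 for miR-19b-3p. The libraries came from P19 cells, a mouse embryonic carcinoma line, with 3 biological replicates of WT cells, labelled Dicer (+/+), and 3 of HM cells, labelled Dicer (HM/-). HM cells carry an RNase IIIb hotspot mutation on one copy of Dicer1, the other copy being knocked out, and no other treatment separated the groups. HM cells were edited from a clonal line that had lost the first copy, so genotype and clone cannot be told apart.

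Dicer cuts a miRNA hairpin with a pair of RNase III domains. RNase IIIb cuts the 5p arm and RNase IIIa cuts the 3p arm, and the latter cut sets the 5′ end of the 3p strand. The seed, bases 2 to 8 counted from that 5′ end, pairs with the target, so a start that lies 1 base earlier shifts the seed by 1 base. miR-19a and miR-19b are the guide strands of hairpins in the miR-17-92 cluster and its X-linked relative, the miR-106a-363 cluster, which are active in embryonic and many tumor cells.

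The mature guides from RefSeq (GRCm38.p6) are printed first because the results turn on where they begin, with the seed in capitals.
miR-19a-3p: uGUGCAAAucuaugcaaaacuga
miR-19b-3p: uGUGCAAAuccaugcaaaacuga
miR-19a-3p lies on the plus strand at chr14:115044048-115044070, within Mir19a. miR-19b-3p is made from Mir19b-1 on the plus strand, at chr14:115044358-115044380, and from Mir19b-2 on the minus strand, at chrX:52741991-52742013. The guides share their seed and differ by U11C, with miR-19a-3p as the reference and positions counted from the 5′ end. The most common early form of miR-19b-3p in the hybrids, seen in 101 reads, began 1 base before the mature start and is printed as sequenced, with its own bases 2 to 8 in capitals.
early miR-19b-3p: cTGTGCAAatccatgcaaaactga
Among the 156 miR-19b-3p reads with this start, 155 began with the C that precedes the mature sequence in both Mir19b-1 and Mir19b-2, so the hairpin of origin cannot be told apart.

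The WT libraries held 1621 to 2331 hybrid reads and the HM libraries 1661 to 5341. Of these, 916, 1091 and 701 reads were 3p hybrids in WT replicates 1, 2 and 3, against 1585, 5113 and 2670 in the HM replicates. The 5p share of hybrids was 54.0% ± 2.24 in WT and 3.91% ± 0.292 in HM (SD, n = 3 each), which checks the genotype labels. Shares of miR-19 are therefore given per 3p hybrid. The authors report that a miRNA cluster on chr12 was silenced in the HM line, as a clonal effect, and left it out of part of their figures. Any hybrids of that cluster were kept here in the 3p totals and fits. This can raise HM shares per 3p hybrid and add to the miRNAs called lower, by an amount that was not measured. A count of 0 over the 3 WT libraries allows up to 3 reads, or 0.111% of their 3p hybrids, and over the HM libraries 0.0320%. Intervals and floors cover counting error only, since reads may not be independent molecules.

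The first question was how much of the 3p pool the guides held. WT libraries 1, 2 and 3 gave 48, 60 and 34 reads of miR-19b-3p, and the HM libraries gave 121, 382 and 163. These came to 5.24%, 5.50% and 4.85% of 3p hybrids in WT and to 7.63%, 7.47% and 6.10% in HM. Every HM library lay above every WT library. The mean was 5.20% ± 0.327 in WT and 7.07% ± 0.840 in HM (SD, n = 3 each; two-sided exact permutation p = 0.1, the smallest that 3 against 3 libraries allow). Over all miRNAs, edgeR called 59.6% of the 94 tested as changed and 16.0% of the 94 as higher in HM. miR-19b-3p was among those called higher, with a log2 fold change of 0.43 ± 0.16 (SE, adjusted p = 0.0155), beside a median of 0.20 over the 58 3p-miRNAs tested. The call was lost without HM library 1 (edgeR adjusted p = 0.0524) or HM library 2 (edgeR adjusted p = 0.0835).

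miR-19a-3p was far rarer. The WT libraries gave 4, 12 and 3 reads and the HM libraries 9, 31 and 12, or 0.655% ± 0.385 and 0.541% ± 0.0818 of 3p hybrids (SD, n = 3 each; exact permutation p = 1). Its log2 fold change was -0.34 ± 0.43 (SE, edgeR adjusted p = 0.501), with the opposite sign when scaled by all hybrids (0.71) or by TMM over 3p-miRNAs (0.07) and without WT library 2 (0.34). WT library 2 held 12 of its 19 WT reads. Both guides together took 5.85% ± 0.678 of 3p hybrids in WT and 7.61% ± 0.917 in HM (SD, n = 3 each). The libraries overlapped, and the exact permutation p was 0.2.

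The other strands of the miR-17-92 and miR-106a-363 clusters place these values. Of their 8 other 3p strands, all 8 were tested, 7 were called higher in HM and 1 lower, beside 16.0% of all miRNAs called higher. miR-18a-3p, miR-20a-3p and miR-106a-3p had 0 WT reads and 19, 24 and 45 HM reads. They reached the minimum of 10 reads for a test through HM alone, so a call could only be higher. Calls were lost without WT library 2 for miR-18a-3p and miR-363-3p and without WT library 1 for miR-18b-3p. Among the strands called higher, miR-363-3p had 16 WT reads against 2 of its partner miR-363-5p (log2 fold change 1.17 ± 0.39 SE, edgeR adjusted p = 0.00615). The strands called higher were thus not only those rarer than their 5p partner in WT. miR-17-3p, the partner of a 5p guide, went from 4, 2 and 1 reads to 38, 133 and 70 (log2 fold change 3.28 ± 0.42 SE, edgeR adjusted p = 2.14e-13). The strand called lower was miR-92a-3p, a 3p guide like miR-19 (log2 fold change -0.40 ± 0.17 SE, edgeR adjusted p = 0.0355). It was called higher instead when scaled by all hybrids (0.65, edgeR adjusted p = 0.000121), and its call was lost with TMM (0.0092, edgeR adjusted p = 0.956), with no minimum of reads and without WT library 1, WT library 2 or HM library 1 (edgeR adjusted p from 0.0664 to 0.291). Of the 12 5p strands, 6 were tested and all 6 were called lower, as were 43.6% of all miRNAs tested. The call of miR-18b-5p, with 8 reads in WT and 3 in HM, was lost when scaled by all hybrids (edgeR adjusted p = 0.0752). The 5p strands of the miR-19 hairpins, miR-19a-5p, miR-19b-1-5p and miR-19b-2-5p, had 0 reads in each library.

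The start of miR-19b-3p differed between WT and HM hybrids. Reads beginning 1 base before the mature start numbered 2, 3 and 2 across WT replicates 1, 2 and 3, against 30, 84 and 35 across the HM replicates. They made up 4.17%, 5.0% and 5.88% of the miR-19b-3p hybrids in WT and 24.8%, 22.0% and 21.5% in HM. All HM libraries lay above all WT libraries. The means, 5.02% ± 0.858 and 22.8% ± 1.79, differed by 17.7 percentage points (SD, n = 3 each; exact permutation p = 0.1, the smallest possible). For both guides together the difference was 16.3 points (exact permutation p = 0.1, Benjamini-Hochberg adjusted p = 0.167 over 5 shares).

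**Figure D1:**
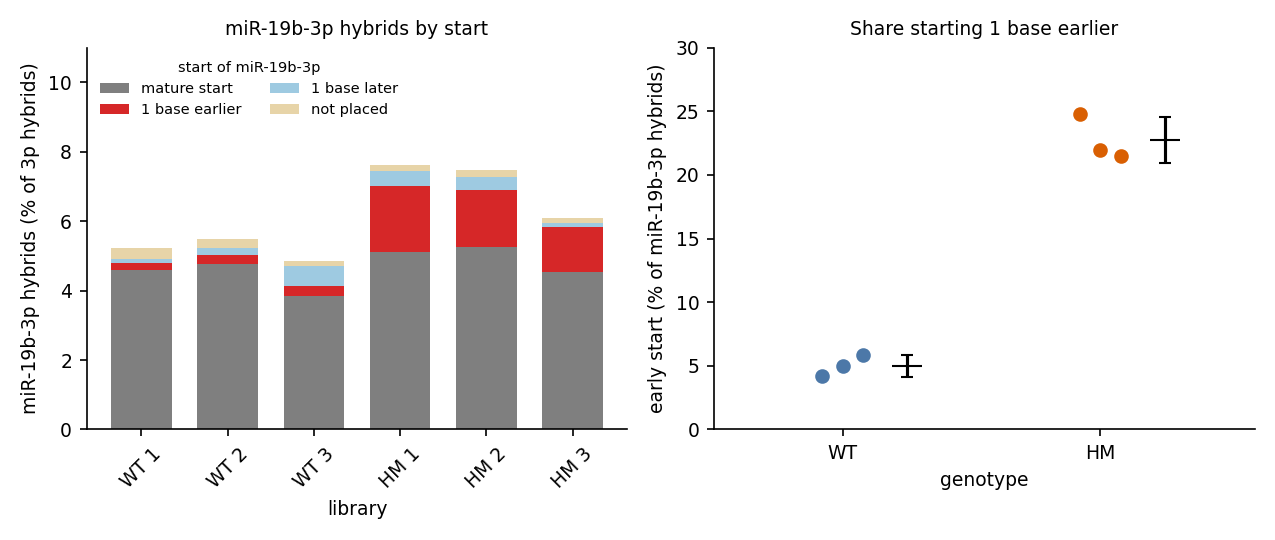
miR-19b-3p hybrids as a percentage of 3p hybrids in each library, split by where the miRNA begins (left), and the percentage of miR-19b-3p hybrids that begin 1 base earlier (right; points are libraries, bars are mean ± SD, n = 3). Mature-start hybrids overlapped between genotypes, from 3.85% to 4.77% in WT and from 4.53% to 5.26% in HM, while the early form lay at or below 0.285% in WT and at or above 1.31% in HM.

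The early and the mature-start form were then counted apart. As a share of 3p hybrids the early form stood at 0.260% ± 0.0361 in WT and 1.62% ± 0.292 in HM, and the mature-start form at 4.40% ± 0.484 and 4.97% ± 0.385 (SD, n = 3 each; exact permutation p = 0.1 and p = 0.3). Summed over libraries, the early form was 6.15 times as frequent in HM (7 reads against 149, exact 95% interval 2.91 to 15.6). In a fit of all miRNAs with each start counted apart, added after seeing the data, edgeR called 56.3% of 103 start classes as changed and 12.6% of the 103 as higher in HM. The early form of miR-19b-3p was called higher (log2 fold change 2.59 ± 0.45 SE, edgeR adjusted p = 5.95e-08). The mature-start form was not (0.16 ± 0.18 SE, edgeR adjusted p = 0.447), although it was when scaled by all hybrids (log2 fold change 1.22, edgeR adjusted p = 4.84e-13). Under that scaling the median of the 65 3p start classes was itself 1.31.

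Early starts were then counted in other 3p-miRNAs. Taking the 15 3p-miRNAs that reached 20 reads in WT and in HM, 11 had 0 early reads in both. miR-302c-3p had early starts in both genotypes, 13.2% of its hybrids in WT and 15.3% in HM with libraries summed. miR-19b-3p went from 4.93% to 22.4% on the same measure, and the differences of the other 14 lay between -0.175 and 2.12 points. miR-19a-3p had 1 early read in WT and 1 in HM, of 19 and 52. In its hairpin a U, not a C, precedes the mature start. The difference between the guides was not tested.

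**Figure D2:**
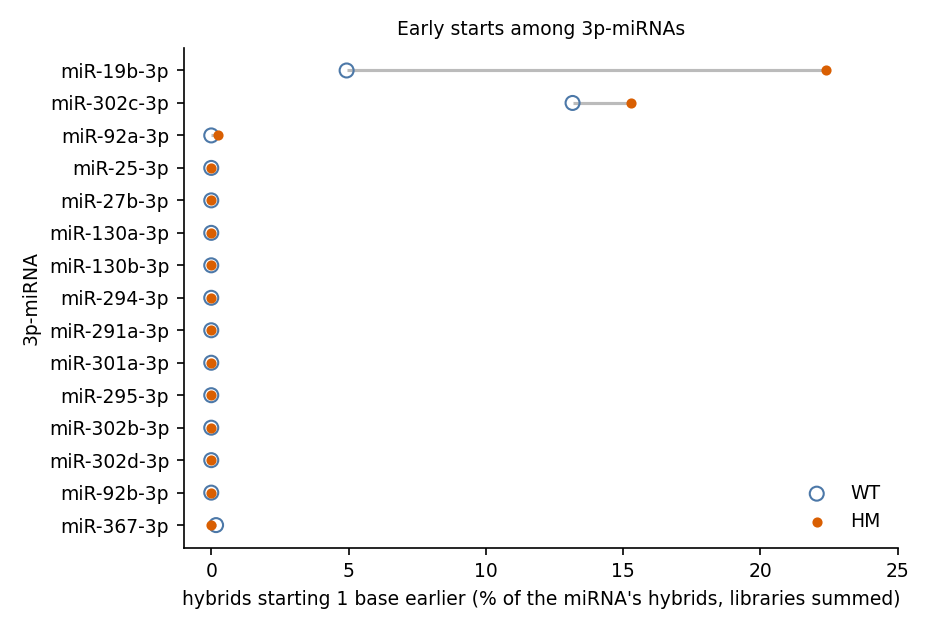
Percentage of hybrids that begin 1 base before the RefSeq mature start, libraries summed, for the 15 3p-miRNAs that reached 20 reads in WT and in HM (open circles, WT; filled circles, HM). miR-19b-3p moved from 4.93% to 22.4%, and no other 3p-miRNA shown moved by more than 2.12 points.

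The target fragments were then read for seed sites. A site for the mature start is TTTGCAC (the m8 site, pairing with bases 2 to 8) or TTGCACA (the A1 site, pairing with bases 2 to 7 and followed by an A), and TTTGCACA holds both. The A1 letters overlap the m8 letters and are also the full complement of bases 2 to 8 of the early form. Fragments are written in the sense of the mRNA, so only that strand was searched. A 7-base site or better was in 56.2% of the fragments joined to miR-19 (494 of 879 reads) and in 4.24% of those joined to other miRNAs. Within each library the share was higher for miR-19, by 54.2 points on average (SD 4.09, 6 of 6 libraries; exact sign-flip permutation p = 0.03125, the smallest that 6 libraries allow). The authors kept only pairs that TargetScan predicts, which requires a site somewhere in the 3′ UTR but not in the fragment. Fragments joined to other miRNAs came from genes that need no predicted miR-19 site. The filter thus favored this direction in advance, and how much of the difference it accounts for was not tested.

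The sites with most reads show what the fragments held, with the longest match to the seed in capitals. For leading genes with a 7-base site, the most frequent fragment that holds one is given, the longest where several tie, up to 30 bases.
Enc1: tggtcgtatgtTTTGCACAttt
Skil: ggaagggcagccTTTGCACtttt
Suz12: ggctagcattgTTTGCACAaaaattggtga
Tor1b: cccccttggggcTTTGCACAtttgcacctg
Mat2a: gggtctgtaggTTGCACActtt
Adipor2: actgtttcaatTTTGCACAagtgatgggag
Ddx3x: ggaagaaaacTTTGCACAcgacagatttct
The fragments printed for Enc1, Suz12, Tor1b, Adipor2 and Ddx3x hold the 8-base site, although those of Suz12, Adipor2 and Ddx3x are fragments with 1 read each. Skil holds the m8 letters alone. Mat2a holds the A1 letters alone, which the early form pairs with over its whole seed and the mature form does not.

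Fragments were 20 to 55 nt long with a median of 23. In those with a 7-base site, the core of the site lay a median of 5 bases from the 3′ end of the fragment, and 62.6% lay 4 to 6 bases from it.

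**Figure D3:**
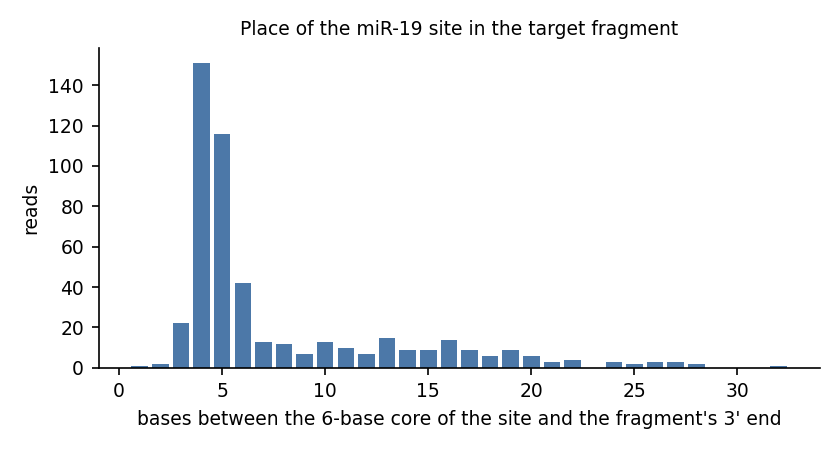
Reads of miR-19 hybrids with a 7-base site, by the number of bases between the 6-base core of the site and the 3′ end of the target fragment (6 libraries summed, 494 reads). Most reads stand at 4 to 6 bases (62.6%).

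The share of fragments with a site was compared between the genotypes. The share with a 7-base site or better was 65.4%, 59.7% and 59.5% in WT and 58.5%, 55.0% and 52.6% in HM. The difference of -6.19 points left no overlap between libraries (exact permutation p = 0.1, adjusted p = 0.167 over 5 shares). With the mature start alone it was -10.4 points, added after seeing the data. The 8-base class held 40.1% ± 2.24 of miR-19 hybrids in WT and 28.6% ± 0.994 in HM, and the A1 class 8.48% ± 2.05 and 12.3% ± 2.04 (SD, n = 3 each; exact permutation p = 0.1 for both, with no overlap). The nearest libraries of the 8-base class were WT library 3 at 37.8% and HM library 1 at 29.2%. Those of the A1 class almost met, with WT library 3 at 10.81% and HM library 3 at 10.86%. The m8 class, at 12.9% ± 2.31 and 14.5% ± 0.171 (SD, n = 3 each), overlapped.

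The letters joined to the early form were set against those joined to the mature start. WT libraries held 8 early reads of either guide, so the comparison was made within the 3 HM libraries. The A1 letters, full complement of the early seed, were in 66.7%, 62.4% and 71.4% of early-start fragments in HM libraries 1 to 3 and in 33.0%, 32.5% and 30.8% of mature-start fragments. The early form was higher in 3 of 3 libraries, by 34.7 points on average (SD 5.46). The exact sign-flip permutation p was 0.25, the smallest that 3 libraries allow, and 0.286 after adjustment over the 8 comparisons of this kind. Over all 6 libraries, an alternative added after seeing the data, the difference was 18.8 points, higher in 5 of 6 (exact p = 0.0625). Without Gigyf1 and Mat2a, the difference within the 3 HM libraries was 32.2 points in place of 34.7.

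The bases that flank the shared core were counted as well. The m8 letters without the A1 base were in 0.00%, 3.53% and 2.86% of early-start fragments and in 21.6%, 18% and 15.8% of mature-start fragments in HM libraries 1 to 3. The A1 letters without the m8 base were in 33.3%, 27.1% and 25.7% against 10.2%, 6.78% and 6.77%. In neither class did early and mature values overlap (exact p = 0.25 for both). The m8 letters in any context, which the 8-base site also holds, were in 40.2% of early-start and 42.6% of mature-start fragments, a difference of -2.39 points (SD 10.1, exact p = 0.75). The 8-base site of the early form, TTGCACAA, was in 37.0% of early-start and 2.60% of mature-start fragments on average, higher in 3 of 3 HM libraries by 34.4 points (SD 2.95, exact p = 0.25). Reads beginning 1 base later, 43 in all, held a 7-base site for the mature start in 79.1% of cases. In HM with libraries summed, 65.7% of the 35 later-start reads held the A1 letters. The early form stood at 65.3% and the mature start at 32.2%, so the A1 letters were not particular to the early form. The A1 class without the m8 base made up 11.4% of those later-start reads and 28.0% of early-start reads. TTGCACAA was in 11.4% and 37.3%.

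**Figure D4:**
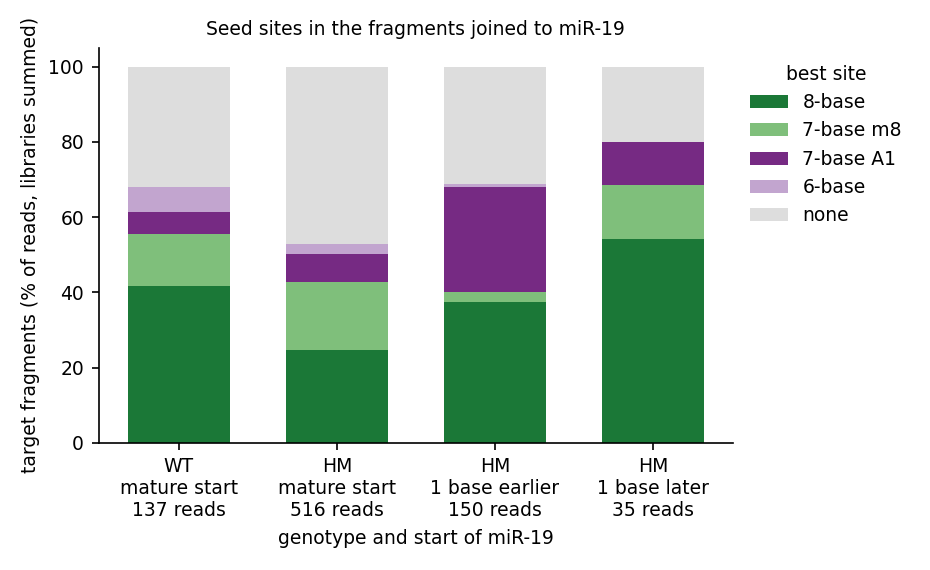
Best seed site of the mature guide in the target fragment, as a percentage of reads with libraries summed, for mature-start hybrids in WT (137 reads) and HM (516 reads) and for early-start (150 reads) and later-start (35 reads) hybrids in HM. In HM the m8 class made up 18.2% of mature-start and 2.67% of early-start reads, and the A1 class 7.36% and 28.0%.

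The genes joined to the guides were many and thinly covered. There were 397 of the 3200 target genes of the series, 257 of them with 1 read, and 281 were seen in 1 library. Of the names, 373 matched a RefSeq symbol, 14 a synonym and 10 neither. miR-19a-3p joined 58 genes and miR-19b-3p 373, with 34 in common (58.6% and 9.12% of each). WT libraries gave 114 genes and HM libraries 346, of which 63 were shared (55.3% and 18.2%). At an equal depth of 37 reads, a WT library held 31.4 ± 1.22 distinct genes and an HM library 31.5 ± 1.03 (SD, n = 3 each; exact permutation p = 1). Sox11 and Enc1 alone were seen in all 6 libraries.

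Sox11, a transcription factor of neural progenitors, had the most reads. The WT libraries gave 3, 7 and 5 and the HM libraries 11, 30 and 24, and the genotypes overlapped per 3p hybrid. Its 80 reads came from 40 entries with 18 distinct fragments, while the 879 reads of miR-19 came from 824 entries. The Sox11 reads may thus not be independent. None of the 80 held a 7-base site. In 74 of them the m8 letters were present with 1 G:U pair, as TTTGTAC, and 43 reads carried the same 20-nt fragment, printed with those letters in capitals.
Sox11: aggcgtattTTTGTACagtg
Only 1 of its 80 reads had the early start. Fragments with 1 G:U pair and no 7-base site made up 3.88% of miR-19 reads without Sox11 and 0.601% of those of other miRNAs. The guides held 81.6% of all hybrids of Sox11, and 0 of the 18 Sox11 reads of other miRNAs began with the letters that open the printed fragment.

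Enc1, a kelch-repeat protein that binds actin, was read 1, 3 and 4 times in the WT libraries, against 6, 14 and 7 times in HM, all 35 with the 8-base site. Skil, which encodes the SMAD corepressor SnoN, was read 2, 0 and 1 times against 5, 11 and 4 times, and 17 of its 23 reads held the m8 site alone. Suz12, a core subunit of Polycomb repressive complex 2, was read 0, 3 and 1 times against 2, 11 and 2 times, and 11 of its 19 reads held no site while 6 held the 8-base site. For these genes the libraries of the genotypes overlapped per 3p hybrid. Tor1b, a torsin ATPase of the endoplasmic reticulum, was read 0, 2 and 0 times against 4, 5 and 1 times, and all 12 held the 8-base site.

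Gigyf1 stood apart. It encodes a partner of the cap-binding protein 4EHP in translational repression, and had 0 reads in each WT library and 5, 8 and 5 in HM libraries 1 to 3. Against the floor of 3 reads over the WT libraries, its hybrids with miR-19b-3p were at least 1.73-fold higher per 3p hybrid in HM. Of 140 miRNA-target pairs tested, edgeR called 15.7% as changed and 2.14% of the 140 as higher in HM. All 7 miR-19 pairs tested were of miR-19b-3p, and Gigyf1 alone was called (adjusted p = 0.0468). With 0 WT reads and 18 HM reads, the Gigyf1 pair reached the minimum of 10 reads for a test through HM alone. The call was lost without any 1 library other than HM library 2 (edgeR adjusted p from 0.0716 to 0.258), and over all alternatives its adjusted p ran from 0.00235 to 0.325. Of its 18 reads, 16 had the early start, 13 held the A1 letters alone and 0 the m8 letters alone.

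Mat2a, which makes the methyl donor S-adenosylmethionine, was alike in form. It had 0 reads in each WT library and 2, 6 and 3 in HM, with 6 of 11 reads early and 9 on the A1 letters alone. The pair with miR-19b-3p, which also reached the minimum through HM reads alone, did not pass the test (edgeR adjusted p = 0.202). Its 10 HM reads lay, per 3p hybrid, below the floor set for 0 WT reads, so no least fold can be given. The other miR-19b-3p pairs tested had edgeR adjusted p of 0.699 for Skil, 0.775 for Sox11, 0.876 for Suz12, 0.936 for Tor1b and 0.958 for Enc1. Enc1, with a log2 fold change of -0.15 ± 0.63 (SE), was the only one below 0, and it lay above 0 when scaled by all hybrids (0.88) or by TMM (0.43).

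**Figure D5:**
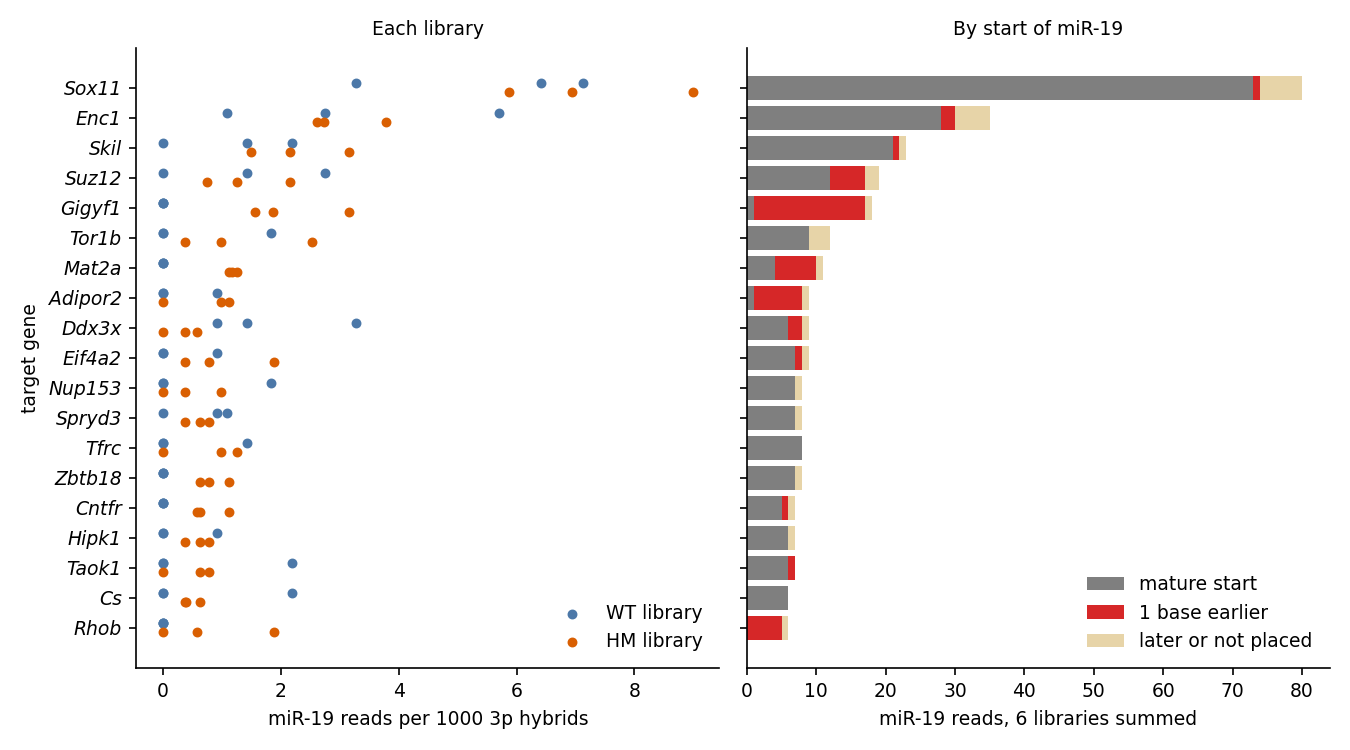
Leading target genes by miR-19 reads. Left, miR-19 reads per 1000 3p hybrids in each library; right, reads over the 6 libraries by the start of miR-19. Gigyf1, Mat2a, Zbtb18 and Cntfr had 0 reads in all WT libraries and reads in all HM libraries. WT libraries held 2708 3p hybrids against 9368 in HM, and how many of all genes show this was not counted. Gigyf1 (16 of 18 reads), Adipor2 (7 of 9) and Rhob (5 of 6) were joined mainly to the early form.

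The remaining leading genes had 6 to 9 reads each. Adipor2, an adiponectin receptor, had 7 of 9 reads from the early form, and Rhob, a small GTPase, 5 of 6, all on 8-base sites. Ddx3x, a DEAD-box RNA helicase, gave 3, 1 and 1 reads across the WT libraries, against 0, 3 and 1 across the HM libraries. Per 1000 3p hybrids these were 3.28, 0.917 and 1.43 in WT and 0, 0.587 and 0.375 in HM, with every WT library above every HM library. Its 9 reads were too few for a test, and how many of all genes separate the genotypes this way was not counted. Eif4a2, a translation initiation helicase, had 8 of 9 reads on A1 letters alone and 7 of 9 with the mature start, so the A1 letters were not particular to the early form. Nup153, of the nuclear pore, had 8 reads and 0 with a site. Zbtb18, a zinc-finger repressor, and Cntfr, the ciliary neurotrophic factor receptor, had 0 WT reads and 8 and 7 in HM. Their HM rates, 0.854 and 0.747 per 1000 3p hybrids, lay below the floor set for 0 WT reads (0.111% of 3p hybrids). Spryd3, Tfrc (transferrin receptor), Hipk1 and Taok1 (protein kinases) and Cs (citrate synthase) each had WT reads and HM reads.

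Genes of the early form were compared with those of the mature start. Early reads named 105 genes and mature-start reads 308, with 41 in common (39.0% and 13.3% of each). Of the 24 genes with 2 or more early reads, 12 had 0 mature-start reads. These genes were picked by their early reads, and no matching share over all genes was counted. Since 257 of the 397 genes had 1 read, sets of genes can also fail to overlap for lack of depth, which was not tested. Of the early reads in HM libraries 1 to 3, 20%, 41.2% and 60.0% fell on a gene that mature-start reads of other libraries also named, compared with 64.8%, 58.6% and 69.2% of mature-start reads. The early form was lower in 3 of 3 libraries, by 23.8 points on average (SD 18.6; exact sign-flip permutation p = 0.25, the smallest possible). Over all 6 libraries the difference was -15.9 points (exact p = 0.25). Without Sox11, an alternative added after seeing the data, it was -19.1 points within the 3 HM libraries (SD 19.2, exact p = 0.25). HM library 3 then stood at -2.73 points.

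Lists of genes from general knowledge were then counted, beside the 12.4% of all target genes of the series that had a miR-19 hybrid. Only pairs predicted by TargetScan were kept, so a gene without a predicted miR-19 site could not have such a hybrid. Genes with more reads also had more chances of one. The 12.4% is therefore no baseline for enrichment, which was not tested. Of 30 well-known miR-19 targets, 18 had a hybrid with any miRNA and 10 with miR-19, with 7 reads in WT and 25 in HM, or 4.35% and 3.48% of the miR-19 reads of each genotype. Hipk1 had 7 reads, all on 8-base sites, and Mycn, a MYC-family transcription factor, had 5. Of 33 genes of PI3K, mTOR and AMPK signaling, 17 had any hybrid and 6 a miR-19 hybrid (3 reads in WT, 12 in HM; 1.86% and 1.67% of miR-19 reads). Of 27 genes of TGF-beta and BMP signaling, 20 had any and 4 a miR-19 hybrid (3 and 24 reads; 1.86% and 3.34%), and Skil gave 23 of the 27 reads.

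Of 49 genes of silencing and mRNA decay, 30 had any hybrid and 10 a miR-19 hybrid, with 4 reads in WT and 34 in HM (2.48% and 4.74% of miR-19 reads). Gigyf1 gave 18 of the 34 HM reads and 0 of the 4 WT reads. The list also included all 3 genes of the GW182 family, the AGO partners Tnrc6a, Tnrc6b and Tnrc6c. Of these, Tnrc6b had 5 reads, all with a 7-base site. Of 62 chromatin regulators, 43 had any and 8 a miR-19 hybrid (10 and 23 reads; 6.21% and 3.20%), led by Suz12. Of 58 ubiquitin ligases and proteases, 38 had any and 8 a miR-19 hybrid (3 and 10 reads; 1.86% and 1.39%), led by Rnf111, a ligase of TGF-beta signaling, with 5 reads in HM and 0 in WT. Among the list genes, only the pairs of miR-19b-3p with Skil, Suz12 and Gigyf1 had enough reads for a test.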

How the data were processed

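AGO2 CLASH libraries of P19 cells (3 WT, 3 HM) were analysed from 1 deposited table of hybrids. The authors named the miRNA with QuagmiR, aligned the target to 3′ UTRs of mouse coding genes with Bowtie2 and kept pairs predicted by TargetScan. Its values are deposited read counts per distinct sequence, without scaling, and 96.7% of the miR-19 entries had 1 read. The genome build, any duplicate removal and which QuagmiR and Bowtie2 versions were run were not given in the sources used here, so no target coordinates are given. Fragments outside 3′ UTRs are absent from the counts by this procedure, and unremoved PCR duplicates could inflate a pair. Genotype and replicate came from sample titles. No library pair of a genotype shared more than 5.02% of its sequences, so all were kept as separate.

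The miRNA part was the hybrid sequence without its target suffix. Its start was placed by the first 18 bases of the RefSeq mature sequence, found for 255 of 298 miRNA names (89.0% of reads); 25 miR-19 reads could not be placed. Shares were compared by exact permutation tests (two-sided) and within-library differences by exact sign-flip tests. Reads per miRNA, miRNA-target pair and start class, with at least 10 reads in total, were fitted with edgeR 4.0.16 (quasi-likelihood, Benjamini-Hochberg at 0.05, R 4.3.3) using 3p hybrid totals as library sizes. DESeq2 1.42.0 was an alternative. Other computing used Python 3.11.15, numpy 2.4.6, pandas 2.3.3, scipy 1.17.1 and matplotlib 3.10.9. On simulated counts with 4-fold changes, the fit recovered 15 of 22 changed miRNAs (1 false call among 89 tested), 5 of 31 pairs (0 false among 120) and 11 of 26 start classes (0 false among 98). The genes named were the 20 with most miR-19 reads, called pairs and list genes with at least 5 reads; 1 such gene and 1 target fragment are not reported here. The guides, lists and tests were chosen with earlier results of these data known.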

Additional observations from a re-analysis of the deposited data

How the results depend on the processing

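Fitted direction and call stayed as reported for the early form of miR-19b-3p under every alternative run (log2 fold change without 1 library 2.49 to 2.69), and its share was higher in HM in every alternative. Leaving out each library gave differences of 1.46 to 2.29 points for the miR-19 share of 3p hybrids, -5.29 to -0.805 for the miR-19a share, 15.4 to 16.9 for early starts, -7.75 to -4.26 for seed sites, 52.9 to 55.3 for sites against other fragments (exact p then 0.0625, the smallest that 5 libraries allow), 31.8 to 37.2 for A1 letters, -7.95 to 1.91 for m8 letters and -27.1 to -22.1 for genes seen in other libraries. WT library 2 decided the miR-19a share (-0.805 points without it). The difference in distinct genes at equal depth, 0.05 genes, was -0.038 without undetermined bases, -0.11 with the guides counted apart and -0.66 to 0.53 without 1 library, changing sign without WT library 3 or HM library 2. The m8 difference changed sign (1.91) without HM library 1.

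Fewer features were tested under some settings, so calls are given with the number tested where it differs most. Calls among miRNAs numbered 56 of 94 in the main fit, 35 of 51 with a minimum of 30 reads and 40 to 61 without 1 library. Calls among pairs numbered 22 of 140, and 13 with DESeq2, 3 of 24 with a minimum of 30 reads and 48 of 210 with miRNAs of 1 seed counted together. Without 1 library they numbered 8 to 17 (9 without WT library 1, 8 without WT library 2). Start classes called numbered 58 of 103 in the main fit, 34 of 52 with a minimum of 30 reads and 34 to 57 without 1 library (34 of 90 without WT library 2). miR-19 pairs called were 3 when scaled by all hybrids, where 20 of 33 called pairs were higher in HM against 3 of 22, and 0 with DESeq2 (which gave Gigyf1 no adjusted p; unadjusted, 20 of all pairs had p under 0.05), no minimum or a minimum of 30 reads, and 0 to 1 without 1 library. Scaling by all hybrids moved the median of all miRNAs from -0.72 to 0.33. Some log2 fold changes of the guides and their pairs changed sign, and none of these was called. miR-19a-3p stood at 0.71 (all hybrids), 0.067 (TMM) and -0.58 to 0.34 without 1 library (above 0 without WT library 2). Its mature-start form stood at 0.74 (all hybrids) and -0.58 to 0.35 without 1 library (above 0 without WT library 2). Enc1 stood at 0.88 (all hybrids), 0.43 (TMM) and -0.55 to 0.41 without 1 library (above 0 without WT library 3). Sox11 stood at -0.44 (entries counted once). Without 1 library, Suz12 stood at -0.10 to 1.24 (below 0 without WT library 1) and Tor1b at -0.19 to 0.70 (below 0 without WT library 1 or 3). Among the other cluster strands, miR-92a-3p changed sign, to 0.65 (all hybrids, called higher) and 0.0092 (TMM, not called).

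Replicate numbers did not pair the libraries (correlations of deviations 0.11, -0.05 and 0.08). With the replicate number as a block, 13 pairs and 0 miR-19 pairs were called, and 49 miRNAs, with the calls of miR-18a-3p, miR-363-3p and miR-92a-3p lost (edgeR adjusted p = 0.0716, 0.0747 and 0.126). The block left share differences as they were (1.76 points for miR-19, exact p = 0.25, the smallest possible).

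Depth limits all of this: most pairs had 1 read, 3 against 3 libraries cannot go below an exact p of 0.1, and the pair fit recovered few simulated 4-fold changes.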
